A study of Mus musculus with 9 samples.

Results

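Sterol and fatty acid metabolism genes were followed in mouse basophils at rest, under cytokine stimulation, and under the same stimulation with a phosphodiesterase 4 (PDE4) inhibitor. The group comprised 38 genes chosen by symbol for their roles in cholesterol synthesis, its SREBP and LXR regulators, sterol transport and fatty acid synthesis. All 38 were among the 35673 gene symbols counted, and all 38 passed the filter on low counts, as did 21341 genes in all. Basophils are rare granulocytes that release histamine and type 2 cytokines. They were grown from C57BL/6J WT bone marrow, with interleukin-3 (IL-3) at 0.3 ng/mL over 7 days, and then selected magnetically for CD49b. Portions of 10000 cells were held for 4 hours in 1 of 3 conditions, and each condition gave 3 bulk RNA-seq libraries. Resting cells received PBS with the vehicle DMSO. Stimulation was with 10 ng/mL each of IL-3 and the alarmin cytokine IL-33, again in DMSO. The difamilast group had both cytokines and, in place of DMSO alone, difamilast at 3 µM, which blocks PDE4, the enzyme family that degrades cAMP in immune cells. All 3 groups had thus been cultured in IL-3 beforehand. Difamilast without cytokines is not among the conditions used here.

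Cells make cholesterol from acetyl-CoA through the mevalonate pathway, which leads to squalene, and then through a chain of sterol enzymes. SREBP transcription factors, held in the endoplasmic reticulum by INSIG proteins and escorted out by SCAP when sterols are scarce, switch on the genes of this chain and of fatty acid synthesis. Liver X receptors (LXRs) respond to oxidised sterols and switch on cholesterol efflux. Fatty acid desaturases (the SCD and FADS enzymes) place double bonds in fatty acids, and the FADS pair works on the route to arachidonic acid, the precursor of prostaglandins and leukotrienes that granulocytes release.

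Promoter sequences of 4 genes are shown because these genes cover the main patterns below. Hmgcs1 stayed near its resting level, Fads2 and Sc5d fell with stimulation, and Mylip rose with difamilast. The rise of Mylip was near the threshold (edgeR adjusted p = 0.0497) and was lost when some single libraries were left out. Each window runs 5′ to 3′ on the gene's strand from 250 bases before the RefSeq start site to 50 after it, in build GRCm38.p6. Capitals mark matches, on either strand, to the SREBP consensus TCACNCCAC, the E-box CACGTG, the NF-Y box CCAAT, the cAMP response element TGACGTCA or the LXR direct repeat (DR4).
Hmgcs1, chr13:119690101-119690400, plus strand: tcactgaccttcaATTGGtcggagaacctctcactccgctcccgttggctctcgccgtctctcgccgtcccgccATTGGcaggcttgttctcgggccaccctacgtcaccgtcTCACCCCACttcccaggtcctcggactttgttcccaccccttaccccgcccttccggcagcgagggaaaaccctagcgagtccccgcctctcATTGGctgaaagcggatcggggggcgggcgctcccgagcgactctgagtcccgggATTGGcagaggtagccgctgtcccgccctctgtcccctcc
Fads2, chr19:10101454-10101753, minus strand: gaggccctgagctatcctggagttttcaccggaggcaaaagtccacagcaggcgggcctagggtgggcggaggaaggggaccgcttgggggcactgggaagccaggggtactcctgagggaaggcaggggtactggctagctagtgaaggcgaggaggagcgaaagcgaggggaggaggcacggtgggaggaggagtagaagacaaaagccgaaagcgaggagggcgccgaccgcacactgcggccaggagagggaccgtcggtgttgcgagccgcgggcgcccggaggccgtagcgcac
Sc5d, chr9:42264251-42264550, minus strand: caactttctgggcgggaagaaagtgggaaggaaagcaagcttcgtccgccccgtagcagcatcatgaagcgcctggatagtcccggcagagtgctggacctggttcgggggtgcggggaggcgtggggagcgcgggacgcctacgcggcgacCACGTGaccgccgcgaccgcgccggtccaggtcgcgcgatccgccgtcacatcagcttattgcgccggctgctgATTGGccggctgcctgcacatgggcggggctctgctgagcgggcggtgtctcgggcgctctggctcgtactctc
Mylip, chr13:45389492-45389791, plus strand: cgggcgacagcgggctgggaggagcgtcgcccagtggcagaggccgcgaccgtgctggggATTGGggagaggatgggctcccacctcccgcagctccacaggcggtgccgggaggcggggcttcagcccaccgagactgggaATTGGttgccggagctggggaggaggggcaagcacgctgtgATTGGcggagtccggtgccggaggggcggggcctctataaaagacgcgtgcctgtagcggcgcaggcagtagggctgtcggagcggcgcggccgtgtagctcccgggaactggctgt
Hmgcs1 holds an SREBP match that begins 137 bases before its start, with NF-Y boxes on both sides. Sc5d holds an E-box and an NF-Y box, Mylip holds 3 NF-Y boxes, and none of the letter patterns occurs in the Fads2 window. Windows were given for 29 of the 38 members; those of Abcg1, Fads1, Fdft1, Fdps, Npc1, Scd1, Scd2, Sqle and Stard4 were not used here. Over the 38 windows of these 29 genes, some genes having several starts, 1 window (2.63%) held the SREBP consensus and 22 (57.9%) an NF-Y box, against 1.24% and 37.4% of 32851 windows of all genes. The E-box was in 7 member windows (18.4%) against 7.15% of all windows. These windows belong to 6 genes, since the overlapping windows of Scap hold the same match. The cAMP response element was in 0 member windows against 1.79%, and the LXR repeat in 0 against 0.0152%. A match to these letters is a description of the sequence and not a measured binding site.

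Library totals ran from 6261446 to 38098584 counts, with the resting libraries shallowest on average. Whether replicates were separate cultures or animals is not in the labels, so p-values reflect the spread among these libraries alone, and that spread may be technical. Of the defining basophil transcripts, Mcpt8, Prss34, Fcer1a and Gata2 were present in every library, and the summed level of 10 basophil markers was 6212 to 7121 CPM at rest, 10391 to 11078 with stimulation and 11883 to 12521 with difamilast. Hdc, the histidine decarboxylase, alone went from 2277 to 4518 CPM with difamilast; without it the other 9 markers summed to 3862 to 5375, 8173 to 8722 and 7594 to 7801 CPM. With difamilast Hdc was called higher and Ms4a2 and Il4 lower, and Itga2, which encodes the CD49b used for selection, was 1.75-fold lower with stimulation. CPM are read counts scaled by library size and TMM factor. The TMM factors were 1.23 to 1.32 in the resting libraries, 0.871 to 0.892 in the stimulated ones and 0.851 to 0.916 with difamilast. The scaling thus differed between resting and treated libraries, and small changes between them depend on it. The 10 monocyte and macrophage markers summed to 4114 to 4964, 3214 to 3306 and 3037 to 3262 CPM in the same order, with Lyz2 the most abundant, so the preparation also held monocyte transcripts. The 7 dendritic cell markers summed to 1574 to 1990, 1739 to 1857 and 1881 to 1997 CPM. The 8 neutrophil markers summed to 104 to 139, 129 to 159 and 95.5 to 176 CPM. The 10 proliferation genes, which include Mki67 and Top2a, summed to 175 to 179, 70.0 to 83.4 and 74.2 to 85.3 CPM. In bulk RNA, fewer cells of a type and less RNA per cell cannot be told apart. Resting replicate 1 stood apart: it was the highest of its group for 26 of the 38 members, beside 39.4% of all tested genes, and its mast cell marker sum was 468 CPM against 737 and 776 in the other resting libraries. Difamilast replicate 3 also stood apart over all tested genes. It was the highest of its group for 40.1% of them, but for 9 of the 38 members.

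Levels per kilobase of transcript, which allow genes to be set side by side, spanned about 2 orders of magnitude at rest. Mylip, an LXR-induced ubiquitin ligase that lowers lipoprotein receptors, was highest in every group, with 90.4 ± 11.7 CPM per kilobase at rest (SD, n = 3). Nr1h2, which encodes LXR beta, came next with 57.5 ± 4.79. Fads1 and Fads2, the delta-5 and delta-6 desaturases, held places 3 and 4 at rest with 41.8 ± 8.68 and 23.3 ± 7.84. From Srebf2 (19.9) through Ebp (19.9), Fdps (17.5), Acly (17.1) and Msmo1 (16.2), neighbours differed by less than their spread. The lowest were Elovl6 at 0.950 ± 0.235 and Scd1 at 0.836 ± 0.151. After stimulation Fads1 stood at place 15 and Fads2 at place 22, while Mylip and Nr1h2 kept the first 2 places.

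**Figure D1:**
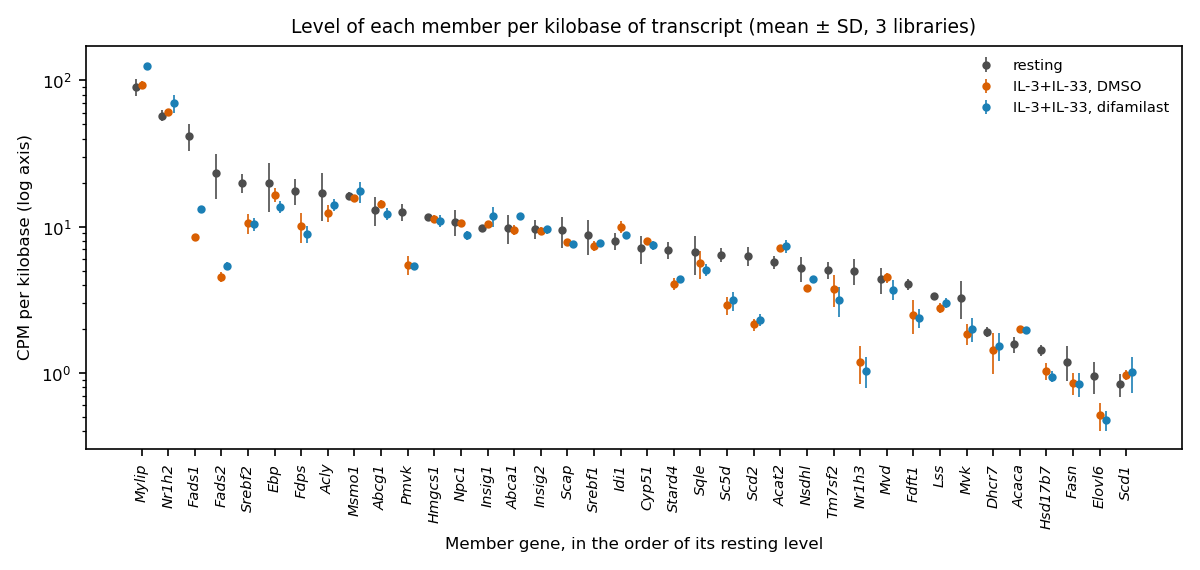
Level of each of the 38 genes in CPM per kilobase of transcript (log axis), with points for group means and bars for the SD of 3 libraries, in the order of the resting level. Mylip and Nr1h2 lead in all groups, and Fads1 drops from 41.8 at rest to 8.45 with stimulation.

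The first question was how these genes responded to the cytokines, in the libraries that had vehicle only. Of the 38 genes, 12 fell and 0 rose. The largest falls were in fatty acid desaturation, where Fads2 was 5.14-fold, Fads1 4.95-fold and Scd2 2.93-fold lower, and in the LXR alpha gene Nr1h3, 4.11-fold lower. Srebf2, the SREBP that drives cholesterol synthesis, was 1.89-fold lower. By the quasi-likelihood test of edgeR, adjusted over all tested genes (Benjamini-Hochberg), 31.7% of all tested genes were called, 15.3% higher and 16.4% lower. The members' share was 31.6% lower and 0% higher. The median log2 fold change was -0.28 over the members and 0.06 over all tested genes. At an unadjusted p under 0.05, 3 members were higher and 16 lower. The share of all tested genes at that threshold is not given here, so these counts have no background beside them. After adjustment limma-voom called 1 member higher (Idi1) and DESeq2 0. Without resting replicate 1, Idi1 and Cyp51 were called higher and Ebp lower, and removal of the trend with transcript length also called Idi1.

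**Figure D2:**
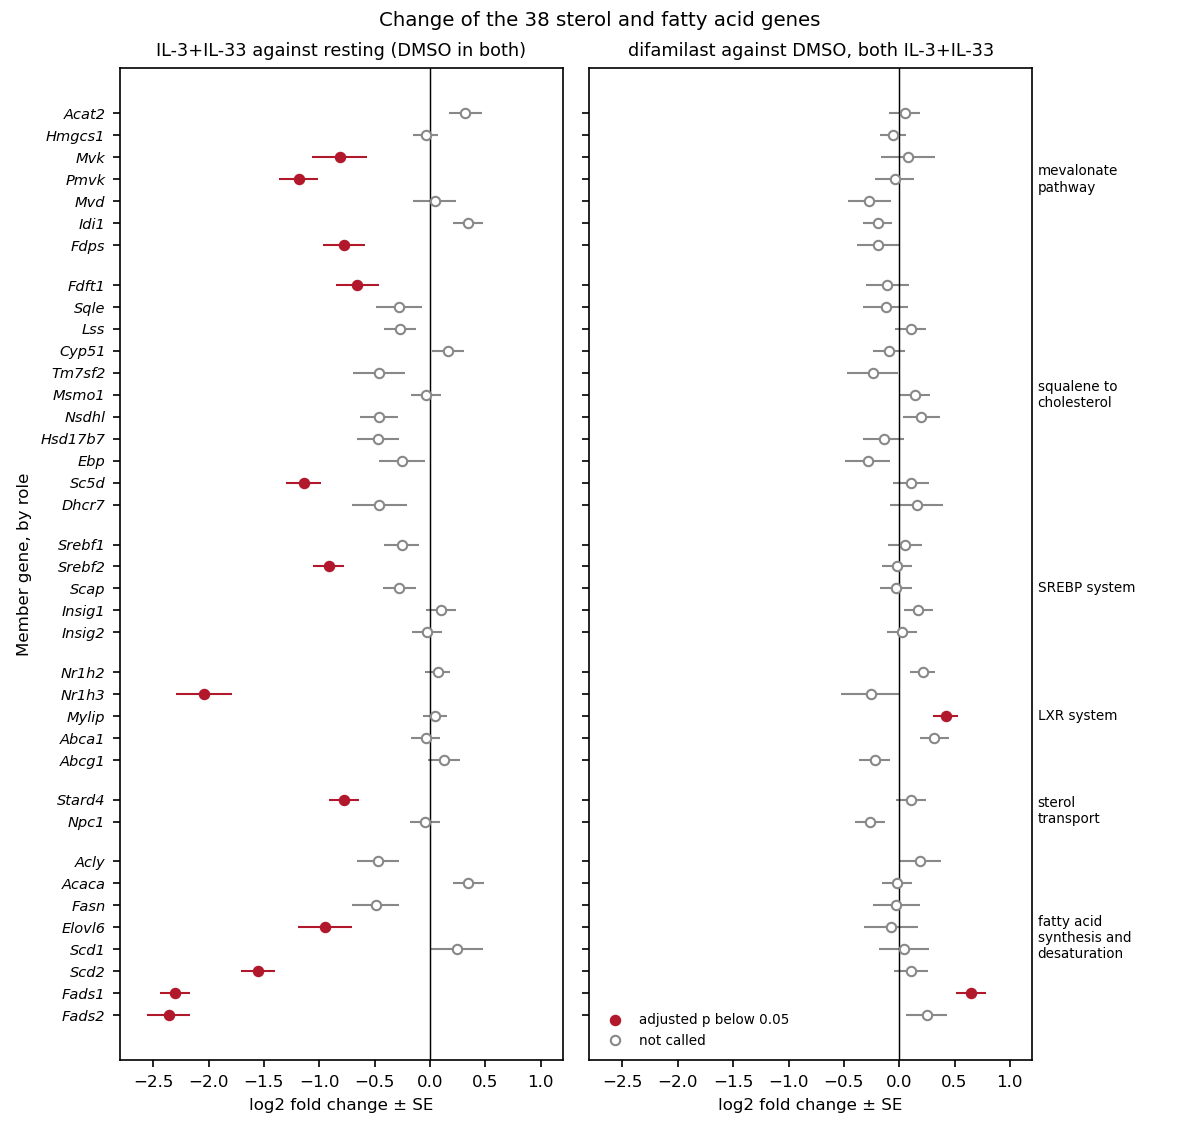
Log2 fold change ± SE of every member, grouped by role, for stimulated against resting libraries (left) and difamilast against vehicle in stimulated cells (right); filled red points have an adjusted p below 0.05. On the left 12 points are red, all below 0, with Fads2 at -2.36 and Fads1 at -2.31; on the right Fads1 (0.65) and Mylip (0.42) are red.

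Fatty acid synthesis and desaturation held 4 of the 12 falls. They were 50% of its 8 genes, beside 16.4% of all tested genes called lower. Fads1 (chromosome 19, 10182888 to 10196877, plus strand) was at 179, 129 and 126 CPM in the resting libraries, at 28.6, 29.8 and 29.3 in the stimulated ones, and at 47.1, 47.1 and 43.3 with difamilast. All resting libraries lay far above all stimulated ones, and the difamilast libraries lay between the other groups with no overlap. The log2 fold change with stimulation was -2.31 ± 0.14 (SE; edgeR adjusted p = 5.43e-09). Fads2 (chromosome 19, 10062765 to 10101746, minus strand), whose start lies 81142 bases from that of Fads1, was at 102, 63.0 and 55.6 CPM at rest, at 13.8, 15.6 and 13.5 with stimulation, and at 17.0, 16 and 18.0 with difamilast. It fell by 2.36 ± 0.19 on the log2 scale (SE; edgeR adjusted p = 1.74e-07). Of all tested genes, 0.544% had a log2 fold change as low as or lower than that of Fads2, and 0.59% as low as or lower than that of Fads1.

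Scd2, a stearoyl-CoA desaturase that makes monounsaturated fatty acids, was at 40.5, 30.2 and 32.8 CPM at rest, at 10.5, 12.0 and 12.6 with stimulation, and at 13.1, 13.6 and 11.3 with difamilast. Its log2 fold change with stimulation was -1.55 ± 0.15 (SE; edgeR adjusted p = 1.61e-06). Scd1, which lies 87590 bases from Scd2 on chromosome 19 and encodes the related enzyme, was low in every library (3.25 to 6.42 CPM) with a log2 fold change of 0.24 ± 0.24 (SE; edgeR adjusted p = 0.478). The difference between the pair's responses was not tested, and their transcripts share 623 bases at 95.5% identity. Elovl6, an elongase that lengthens palmitate, was at 4.76, 7.27 and 4.94 CPM at rest and 3.81, 2.73 and 2.63 with stimulation, and fell 1.93-fold (edgeR adjusted p = 0.0077). The enzymes that build the fatty acid chain did not pass. Acly, which supplies cytosolic acetyl-CoA, had a log2 fold change of -0.47 ± 0.19 (SE) and Fasn, the fatty acid synthase, -0.49 ± 0.22, while Acaca, the acetyl-CoA carboxylase that commits carbon to fatty acids, had 0.35 ± 0.14; edgeR adjusted p-values were 0.077, 0.0971 and 0.076. Acly was at 108 CPM in resting replicate 1 against 61.2 and 58.4 in the other resting libraries. It passed without resting replicate 2 or 3 and without a filter on low counts, with log2 fold changes between -0.65 and -0.15 over all alternatives.

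**Figure D3:**
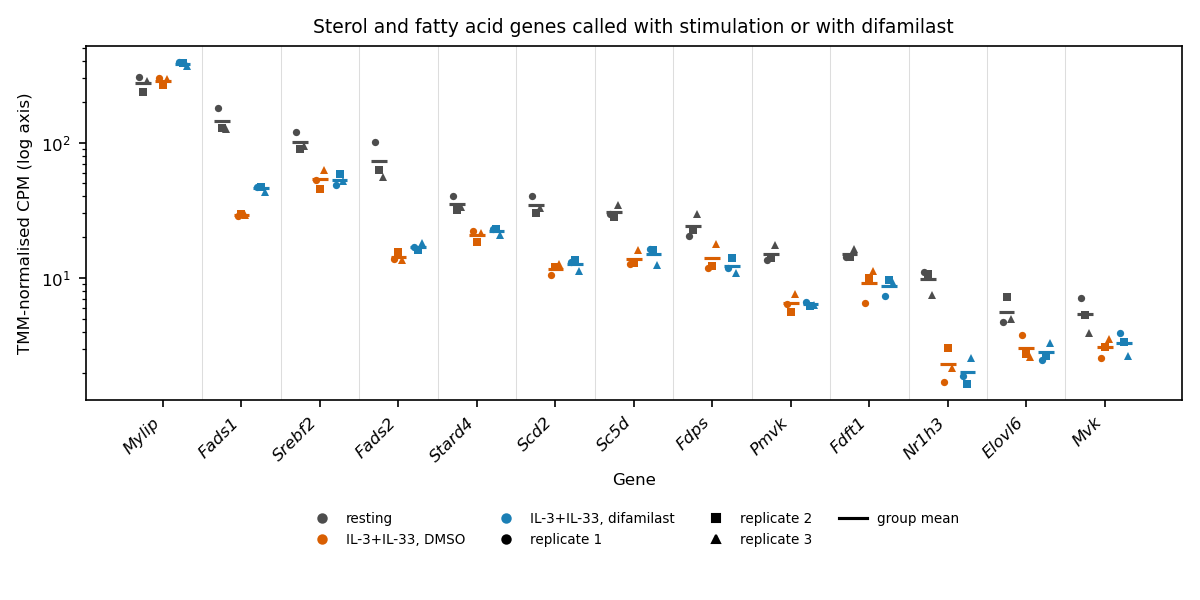
Level of the 13 genes called with stimulation or with difamilast, in TMM-normalised CPM (log axis); each point is a library, its shape the replicate number, and bars are group means of 3. Resting libraries lie above stimulated ones for 12 genes, and Mylip stands highest with difamilast (365 to 396 against 265 to 299.6).

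Cholesterol synthesis was read in its early and late steps. Of 7 mevalonate pathway genes, 3 fell (42.9%, beside 16.4% of all tested genes called lower) and 4 were not called. Pmvk, the kinase that forms mevalonate diphosphate, was at 13.6, 14.1 and 17.5 CPM at rest, at 6.47, 5.61 and 7.62 with stimulation, and at 6.6, 6.21 and 6.35 with difamilast. The groups at rest and with stimulation did not overlap, and the log2 fold change was -1.19 ± 0.17 (SE; edgeR adjusted p = 9.08e-05). Fdps, which makes farnesyl diphosphate, was at 20.4, 22.6 and 29.8 CPM at rest and at 11.8, 12.3 and 17.7 with stimulation (1.71-fold lower, edgeR adjusted p = 0.00596). Mvk, the mevalonate kinase, was at 7.06, 5.28 and 3.93 against 2.57, 3.09 and 3.57 CPM (1.76-fold lower, edgeR adjusted p = 0.0204). Mvk lost its call without resting replicate 1 (adjusted p up to 0.0818 over the alternatives) and without stimulated replicate 1 or 2. Hmgcs1, the first committed synthase, was at 40.6, 42.3 and 38.1 CPM at rest and 40.9, 36.6 and 40.5 with stimulation, and the groups overlapped. Its log2 fold change was -0.04 ± 0.12 (SE). Acat2 (0.32 ± 0.15), the thiolase at the head of the route, Mvd (0.04 ± 0.20), the decarboxylase, and Idi1 (0.34 ± 0.14), the isomerase, were not called. Differences between the steps were not tested. Fdps shares near-identical sequence with several pseudogenes, among them Gm3571 (1062 bases at 98.9%), and exons with Gm43738 on the same strand. Acat2 is 97.7% identical to Acat3 over 1477 bases, and Idi1 matches Gm13502 over 684 bases at 100%. The counting could have divided the reads of these genes. Gm13502 was itself called higher with stimulation (log2 fold change 0.81 ± 0.20 SE, edgeR adjusted p = 0.0061), while Gm3571, Gm43738 and Acat3 were not called.

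Of 11 genes from squalene to cholesterol, 2 fell (18.2%, beside 16.4% of all tested genes called lower) and 9 were not called. The median log2 fold change was -0.46. Sc5d, the lathosterol oxidase, was at 29.6, 28.1 and 34.8 CPM at rest, at 12.7, 12.8 and 16.2 with stimulation, and at 16.4, 16.1 and 12.4 with difamilast. Every resting library lay above every treated one, with a log2 fold change with stimulation of -1.14 ± 0.16 (SE; edgeR adjusted p = 6e-05). Fdft1, the squalene synthase, was at 14.2, 14.3 and 16.3 against 6.57, 9.91 and 11.3 CPM, 1.58-fold lower (edgeR adjusted p = 0.0182). Fdft1 shares 774 exonic bases with Ctsb on the opposite strand, and the use of strand is not given. Ctsb itself lay at 1819 ± 318 CPM at rest and 1033 ± 49.1 with stimulation, with a log2 fold change of -0.82 ± 0.12 (SE), so reads of the pair cannot be told apart in the shared part. Fdft1 also lost its call without stimulated replicate 1 (adjusted p = 0.0569). The other members of the chain had log2 fold changes from -0.47 to 0.16. Hsd17b7 (-0.47 ± 0.19 SE), Nsdhl (-0.46 ± 0.17), Tm7sf2 (-0.46 ± 0.23) and Dhcr7 (-0.46 ± 0.25), which act on the sterol ring and its double bonds, were lower on average. Nsdhl had an edgeR adjusted p of 0.0502, and over the alternatives it ran from 0.0229 to 0.166. Sqle, the squalene epoxidase (-0.28 ± 0.21), Lss, which closes the ring (-0.27 ± 0.14), the isomerase Ebp (-0.25 ± 0.21), Msmo1 (-0.03 ± 0.14) and Cyp51 (0.16 ± 0.15), demethylases, were not called. Without resting replicate 1, Ebp had a log2 fold change of -0.53 and was called lower (edgeR adjusted p = 0.00897).

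In the SREBP system 1 of 5 genes fell (20%, beside 16.4% of all tested genes called lower) and 0 rose. Srebf2 (chromosome 15, 82147181 to 82205379) was at 119, 90 and 94.7 CPM at rest, at 53.3, 45.4 and 62.2 with stimulation, and at 48.3, 58.7 and 51.6 with difamilast. No treated library reached the lowest resting one, and the log2 fold change was -0.92 ± 0.14 (SE; edgeR adjusted p = 0.000138). Srebf1, which favours fatty acid genes, was at 49.6, 31.5 and 32.5 against 34.8, 30.9 and 30.1 CPM, and its log2 fold change of -0.25 ± 0.16 did not pass (edgeR adjusted p = 0.25). The escort gene Scap (-0.28 ± 0.15 SE) and the retention genes Insig1 (0.10 ± 0.14) and Insig2 (-0.03 ± 0.14) were not called. Scap passed without resting replicate 2 (adjusted p = 0.0368).

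In the LXR system 1 of 5 genes fell (20%, beside 16.4% of all tested genes called lower) and 0 rose. The gene that fell was the receptor gene Nr1h3. Nr1h3 (chromosome 2, 91184061 to 91202834), which encodes LXR alpha, was at 11.0, 10.8 and 7.47 CPM at rest, at 1.71, 3.06 and 2.17 with stimulation, and at 1.88, 1.64 and 2.56 with difamilast. Its log2 fold change was -2.04 ± 0.25 (SE; edgeR adjusted p = 1.72e-05), and 1.01% of tested genes went as low or lower. Nr1h2, which encodes LXR beta, was at 123, 104 and 118 against 125, 117 and 119 CPM, with overlapping groups and a log2 fold change of 0.07 ± 0.12; the difference between the receptors' responses was not tested. The other members of the list, the cholesterol exporters Abca1 (-0.04 ± 0.13 SE) and Abcg1 (0.13 ± 0.14) and the ligase gene Mylip (0.05 ± 0.11), were not called. Lpcat3, a phospholipid-remodelling LXR target, rose (0.45, edgeR adjusted p = 0.00928). It was picked from another list, in which 4 genes rose and 9 fell. Nr1h3 is known as abundant in macrophages, and 4 of the 10 monocyte and macrophage markers also fell with stimulation while 1 rose. Their part in the fall of Nr1h3 was not tested. All 10 proliferation genes fell (median log2 fold change -1.32), and their part in the falls of the lipid genes was not tested either.

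Of the pair of sterol transport genes, 1 fell (50%, beside 16.4% of all tested genes called lower). Stard4, which carries cholesterol between membranes, was at 40.3, 31.9 and 33.7 CPM at rest, at 22.1, 18.6 and 21.5 with stimulation, and at 23.0, 22.8 and 20.9 with difamilast, a fall of 0.77 ± 0.13 on the log2 scale (SE; edgeR adjusted p = 0.000412). Npc1, which releases cholesterol from lysosomes, overlapped between groups (45.7 to 68.8 at rest, 51.7 to 57.5 CPM with stimulation; log2 fold change -0.04 ± 0.14). Npc1 shares 511 exonic bases with Rmc1 on the opposite strand.

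The next question was what the PDE4 inhibitor changed once the cytokines were present. Of the 38 genes, 2 rose and 0 fell: Fads1 was 1.57-fold and Mylip 1.34-fold higher. In the same test 3.44% of all tested genes were called, 2.21% higher and 1.24% lower, and the members' share was 5.26% higher and 0% lower. At an unadjusted p under 0.05, 3 members were higher and 0 lower, again without the share of all tested genes. Neither DESeq2 nor limma-voom called a member lower. The median log2 fold change was 0.0023 over the members and -0.0029 over all tested genes, and 19 members lay on each side of 0.

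Fads1, with 43.3 to 47.1 CPM under difamilast against 28.6 to 29.8 without it, had a log2 fold change of 0.65 ± 0.13 (SE; edgeR adjusted p = 0.0107), and the groups did not overlap. Against resting cells its level with difamilast was still 3.16-fold lower. Its neighbour Fads2 was at 16 to 18.0 against 13.5 to 15.6 CPM, also without overlap, with a log2 fold change of 0.25 ± 0.19 (SE; edgeR adjusted p = 0.613). Mylip was at 396, 385 and 365 CPM with difamilast, at 299.6, 265 and 293 in vehicle, and at 307, 237 and 287 at rest. All difamilast libraries were above all others, with a log2 fold change of 0.42 ± 0.11 (SE; edgeR adjusted p = 0.0497). Over the alternatives the log2 fold change ran from 0.61 to 0.69 for Fads1 and from 0.37 to 0.46 for Mylip. Neither was called once any of stimulated replicates 1, 2 and 3 or difamilast replicates 1 and 2 was left out (adjusted p up to 0.0695 for Fads1 and 0.275 for Mylip), and Mylip was also not called with RLE scaling, with the replicate number as a block or without resting replicate 3.

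Abca1, another LXR target, was at 118, 124 and 123 CPM with difamilast against 97.6, 90.2 and 105 in vehicle, with a log2 fold change of 0.32 ± 0.13 (SE; edgeR adjusted p = 0.276). Its groups did not overlap. Groups also did not overlap for Nsdhl, which was higher, and for Mvd, Idi1, Ebp, Abcg1 and Npc1, which were lower. None of these genes was called, nor was Fads2. The share of all tested genes without overlap was not counted, so the lack of overlap is not read as a change. Abca1 passed when just these 2 groups were fitted and when resting replicate 1 was left out (adjusted p down to 0.0198). Abcg1 lay on the other side (-0.22 ± 0.14 SE), with 64.1 to 76.5 against 77.8 to 88.5 CPM. Of the receptors, Nr1h2 had 0.21 ± 0.11 and Nr1h3 -0.26 ± 0.27. The mevalonate genes ran from -0.27 (Mvd) to 0.08 (Mvk), the genes from squalene to cholesterol from -0.28 (Ebp) to 0.20 (Nsdhl), and the SREBP system from -0.03 (Scap) to 0.17 (Insig1). Srebf2, lower with stimulation, had -0.02 ± 0.14 (SE) with difamilast, Scd2 0.10 ± 0.15, Stard4 0.11 ± 0.13 and Npc1 -0.27 ± 0.14.

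Difamilast with stimulation against resting cells shares libraries with both comparisons above, so its values are given beside them and not as a separate check. Of the 38 genes, 14 were lower and 1, Mylip (1.38-fold, edgeR adjusted p = 0.00439), was higher, where 32.8% of all tested genes were called, 16.4% in either direction taken alone. Fads2 was 4.33-fold, Scd2 2.73-fold, Nr1h3 4.91-fold, Pmvk 2.34-fold, Sc5d 2.05-fold and Srebf2 1.91-fold lower, against 5.14-fold, 2.93-fold, 4.11-fold, 2.28-fold, 2.2-fold and 1.89-fold with stimulation in vehicle. Tm7sf2, the sterol reductase, at 7.2, 8.64 and 6.71 CPM at rest and 5.12, 3.44 and 5.5 with difamilast (edgeR adjusted p = 0.0326), and Hsd17b7, a sterol ketoreductase, at 6.08, 7.21 and 6.59 against 4.47, 3.95 and 4.65 (adjusted p = 0.0219), were lower here. Both calls were lost without resting replicate 2 and without difamilast replicate 1 or 2 (adjusted p up to 0.145 and 0.0892). Tm7sf2 shares 532 exonic bases with Vps51 on the same strand, so reads of the shared part could belong to either gene. Vps51 was at 22.9 ± 5.38 CPM at rest and 22.1 ± 0.619 with difamilast (SD), with a log2 fold change of -0.06 ± 0.16 (SE). Mvk lost its call here without resting replicate 1, without difamilast replicate 2 or 3, and in a fit of the pair of groups alone (adjusted p up to 0.121).

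Other lipid genes were taken from lists of neighbouring pathways. Over all tested genes 15.3% were called higher and 16.4% lower with stimulation, and 2.21% higher and 1.24% lower with difamilast against vehicle. Of 22 tested genes of fatty acid activation, storage and oxidation, 4 rose (18.2%) and 9 fell (40.9%) with stimulation. With difamilast 3 rose (13.6%) and 0 fell. The enzymes that make triglyceride from diacylglycerol moved in opposite directions. Dgat2 went from 55.5, 61.3 and 55.6 CPM at rest to 660.1, 676 and 713 with stimulation, 11.9-fold higher (edgeR adjusted p = 2.8e-11). Dgat1 fell from 953, 789 and 778 to 368, 379.5 and 416 CPM, 2.17-fold lower (edgeR adjusted p = 2.01e-06), and stood at 1325, 1255 and 1104 with difamilast, 3.17-fold above vehicle (edgeR adjusted p = 1.26e-06). Difamilast libraries thus lay above both other groups for Dgat1. Plin2, which coats lipid droplets, was 2.6-fold lower with stimulation (from 153, 129 and 134 CPM to 54.5, 53.3 and 52.0). Acsl4, which activates arachidonic acid, rose 1.58-fold with stimulation and a further 1.32-fold with difamilast, and Ppard, a lipid-sensing nuclear receptor, was 1.42-fold higher with difamilast. The difamilast calls of Acsl4 (edgeR adjusted p = 0.0323) and Ppard (0.0395) were lost when any one stimulated library, or difamilast replicate 1 or 2, was left out (adjusted p up to 0.178 and 0.215). Acsl4 also lost it with the replicate block, and Ppard without difamilast replicate 3.

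**Figure D4:**
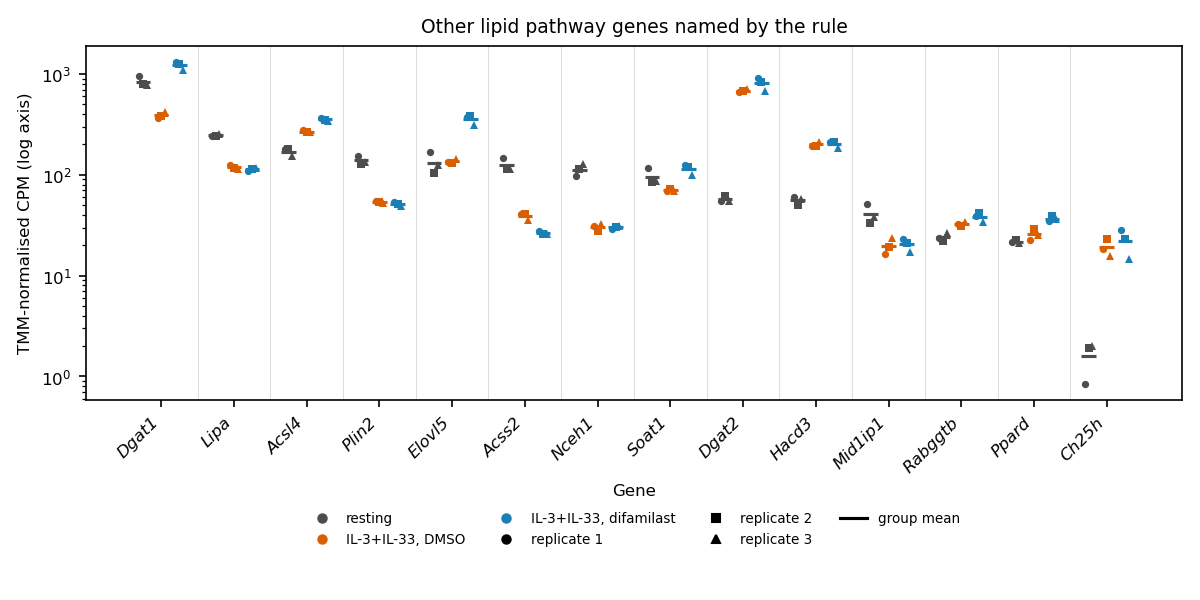
Level of the lipid genes outside the 38 that the rule named, in TMM-normalised CPM (log axis); points are libraries, shapes replicate numbers, bars means of 3. Dgat2 and Ch25h rise with stimulation, and Dgat1, Elovl5 and Soat1 stand highest in the difamilast group on average.

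Of 16 tested genes linked to SREBP or to acetyl-CoA supply and chain elongation, 3 rose (18.8%) and 4 fell (25%) with stimulation. With difamilast 1 rose and 1 fell (6.25% each). Elovl5, the elongase that follows the FADS2 step, was at 166, 104 and 126 CPM at rest, at 135, 132 and 143 with stimulation, and at 376, 382 and 309 with difamilast. It was 2.6-fold higher with difamilast than in vehicle (edgeR adjusted p = 4.18e-05). Acss2, which makes acetyl-CoA from acetate, fell in both comparisons, from 147, 114 and 113 CPM at rest to 40.9, 40.5 and 35.9 with stimulation and 27.5, 26.1 and 26.1 with difamilast. The second step (1.47-fold, edgeR adjusted p = 0.0172) was lost without stimulated replicate 1 or 2 or difamilast replicate 1 or 2 (adjusted p up to 0.109). Hacd3, a dehydratase of very long chain elongation, rose 3.58-fold with stimulation, and Mid1ip1, which activates acetyl-CoA carboxylase, was 2.05-fold lower.

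Of 17 tested genes of sterol esterification, lysosomal release and oxysterols, 4 rose (23.5%) and 9 fell (52.9%) with stimulation. With difamilast 1 rose (5.88%) and 0 fell. Ch25h, which makes 25-hydroxycholesterol, an LXR ligand that also restrains SREBP, went from 0.839, 1.93 and 2.03 CPM at rest to 18.5, 23.2 and 15.6 with stimulation, 12.2-fold higher (edgeR adjusted p = 5e-07), and was at 28.5, 23.0 and 14.5 with difamilast. Both named cholesteryl ester hydrolases fell: Nceh1 was 3.7-fold lower (113 ± 15.0 to 30.5 ± 2.48 CPM; SD, n = 3) and the lysosomal Lipa 2.07-fold lower (246 ± 6.37 to 119 ± 6.08). Soat1, which esterifies cholesterol for storage, was at 126, 120.1 and 100.2 CPM with difamilast against 69.6, 71.7 and 68.8 in vehicle, 1.65-fold higher (edgeR adjusted p = 0.00538). At rest it was at 118, 84.1 and 86.2 CPM, so it had fallen 1.37-fold with stimulation (edgeR adjusted p = 0.0173, lost without stimulated replicate 3), and difamilast against resting was not called (0.26, adjusted p = 0.152, groups overlapping). Of 11 isoprenoid branch genes, 1 rose (9.09%) and 0 fell with stimulation. The enzymes they encode act on farnesyl diphosphate, which Fdps makes, or on isoprenoids derived from it. The gene that rose was Rabggtb (1.37-fold, edgeR adjusted p = 0.0127), which encodes a subunit of the enzyme that prenylates Rab proteins. With difamilast 0 changed (0 also at an unadjusted p under 0.05). Rabggtb lost its call without resting replicate 2 or stimulated replicate 1 or 3 (adjusted p up to 0.0774).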

How the data were processed

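The deposited table holds raw read counts per gene symbol for 9 libraries, with every column belonging to a labelled sample. Oligo-dT beads captured the mRNA, which went through whole-transcriptome amplification before fragmentation, per the labels' protocols; they mention no molecular identifiers, so counts may hold PCR copies. Bowtie2 2.4.5, cutadapt 4.1 and build GRCm38 come from the submitters' processing notes. Neither the counter nor any strand setting was stated. Groups and replicate numbers come from the sample titles. The test was edgeR 4.0.16 (R 4.3.3, statmod 1.5.0), quasi-likelihood with robust dispersion, TMM scaling and filterByExpr (minimum count 10, minimum total 15), fitted once to the 9 libraries (6 residual degrees of freedom); p-values were Benjamini-Hochberg adjusted over 21341 genes and called at 0.05. The SE is the log2 fold change divided by the square root of F. Transcript lengths (the longest coding transcript) and positions come from GENCODE vM21, where 34257 symbols had a single gene; shared sequence means at least 100 bases at 95% identity. Alternatives were DESeq2 1.42.0, limma-voom 3.58.1, RLE scaling, no filter, 2-group fits, the replicate number as a block, removal of a lowess trend (span 0.3) with transcript length, and each library left out. The edgeR steps were tested on simulated data. Values in every library are given for members called with stimulation (up to 4 per role) or with difamilast; up to 3 called genes with the smallest p were named per other list and comparison. Other members with values in every library, Lpcat3 and the marker genes named singly were chosen after their values were seen. The members and lists were chosen with earlier results of these data known.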

Additional observations from a re-analysis of the deposited data

How the results depend on the processing

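With stimulation, 10 of the 12 member calls held under all 16 alternatives (Mvk and Fdft1 did not), and no call reversed. The member count there was 11 to 15 when a library was left out. For difamilast against vehicle, 2 members were called, 1 with RLE scaling and 1 with the replicate block, and 0 to 3 when a library was left out; neither call held under all alternatives. Over all genes that comparison called 735, against 1115 by DESeq2, 1351 with no filter, 1673 in a fit of the 2 groups alone and 347 to 1693 when a library was left out; the cause was not tested. For difamilast against resting, 12 of 15 member calls held throughout (not Mvk, Tm7sf2 and Hsd17b7), and 12 to 18 members were called when a library was left out. The replicate numbers share nothing in the labels but a number: same-numbered libraries correlated at -0.0778 to 0.108 in their deviations from the group means, and the own number was the best match in 4 of 18 cases. With the replicate block 12, 1 and 16 members were called in the 3 comparisons. The 14 other pathway genes named by the rule were put through the same alternatives, a choice made after the data had been seen; the counts over their lists were not. Nr1h3 had 18 counts in its lowest library, the smallest count of any member.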
